A study of Mus musculus with 24 samples.

Results

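The comparison described here is the change of the tumor-normal difference between early and late stages of mammary tumor progression, measured for every miRNA in one fit of all 24 libraries. For each miRNA, the log2 difference between tumor and normal tissue was averaged over weeks 6 and 8 (early) and over weeks 10 and 12 (late), and the early value was subtracted from the late value. A positive change means that tumors stood higher relative to normal glands late than early, and a negative change means the opposite. All 24 libraries of the series entered this comparison, 12 early and 12 late, and of 510 miRNAs listed, 364 had at least 1 count and 237 passed the filter on low counts. The other 127 miRNAs with counts were too low to test, and 146 were listed at 0.

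Small RNA was sequenced from mammary tissue of MMTV-PyMT female mice and of FVB female controls, with 3 mice of each genotype at each of 4 ages. The PyMT tissue carries the label hyperplasia (week 6), adenoma (week 8), early carcinoma (week 10) or late carcinoma (week 12), and the controls were normal glands of the same ages. All mice shared the FVB strain, and none of the labels names a drug or other treatment. The transgenic mice were heterozygous, and the MMTV promoter drives the polyoma middle T antigen mainly in mammary epithelium, so that the stroma of the tumors carries the same genome without being the main target of the oncogene.

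MiRNAs are short RNAs that pair through their seed with messenger RNAs and lower their translation and stability, and members of one seed family recognize largely the same targets. PyMT tumors pass from hyperplasia to invasive carcinoma within weeks, while the control gland goes through puberty and reaches the adult ductal state over the same ages, so that the difference between the tissues can move because either of them moves. In whole tissue, fewer cells of a type and less RNA per cell cannot be told apart.

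The mature sequences of the miRNAs on which the results turn are given as RefSeq lists them for GRCm38.p6, with the seed (bases 2 to 8) in capitals. The table gives no arm for a miRNA, so each sequence is the arm usually most abundant and not necessarily the one counted. Of 18 sequences looked for, 14 were found. The first 4 belong to miRNAs whose difference lay lower late, and miR-10a is shown because it has the seed of miR-10b.
miR-138-5p: aGCUGGUGuugugaaucaggccg
miR-10b-5p: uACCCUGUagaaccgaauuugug
miR-10a-5p: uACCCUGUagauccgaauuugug
miR-708-5p: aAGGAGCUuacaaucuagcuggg
The next 7 belong to miRNAs whose difference lay higher late and to their relatives, and show the seed shared by the miR-181 family and the seed shared by miR-497 and miR-195.
miR-326-3p: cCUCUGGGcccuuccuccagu
miR-181a-5p: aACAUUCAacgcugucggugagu
miR-181b-5p: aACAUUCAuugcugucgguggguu
miR-181c-5p: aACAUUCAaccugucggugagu
miR-181d-5p: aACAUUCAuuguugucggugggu
miR-497a-5p: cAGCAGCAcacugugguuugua
miR-195a-5p: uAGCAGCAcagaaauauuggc
The last 3 lie in the Dlk1-Dio3 domain and fell with age in normal glands, and they share no seed.
miR-127-3p: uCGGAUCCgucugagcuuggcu
miR-434-3p: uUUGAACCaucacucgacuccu
miR-411-5p: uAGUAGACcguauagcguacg

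Total counts ranged from 1626022 to 3560156 in early normal glands, from 2332252 to 3931375 in late normal glands, from 1032241 to 2102395 in early tumors and from 1081959 to 2213972 in late tumors. Levels are given as CPM, the counts of a miRNA scaled to the TMM-adjusted size of its library. Early groups had 4 libraries on lane 1 and 2 on lane 2, and late groups had 2 and 4, in both genotypes alike. The skeletal and heart muscle miRNAs summed from 40.8 to 89385 CPM over the libraries. On unadjusted library sizes they summed from 41.6 to 94980 CPM, and 6 libraries (4 normal and 2 tumor) exceeded 10000 CPM on that scale. Epithelial markers of the miR-200 family summed from 2719 to 5010 CPM in normal glands of both periods and from 15538 to 27214 CPM in tumors. They were thus present in every library and higher in every tumor than in any normal gland. The amount of epithelium was not measured.

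The tumor-normal difference at late stages was close to that at early stages for most miRNAs. Early, 181 of 237 miRNAs (76.4%) differed between tumor and normal glands at an adjusted p of 0.05, with 84 higher (35.4%) and 97 lower (40.9%) in tumors. Late, 165 of 237 (69.6%) differed, with 83 higher (35%) and 82 lower (34.6%). The 145 miRNAs called in both periods made up 80.1% of the early and 87.9% of the late calls, and all 145 kept their sign. Of the 181 called early, 179 had the same sign late. Across the 237 miRNAs, which are not independent replicates, early and late differences had Pearson's r of 0.926 and Spearman's rho of 0.929. The median absolute difference was 0.91 log2 units early and 0.86 late.

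**Figure D1:**
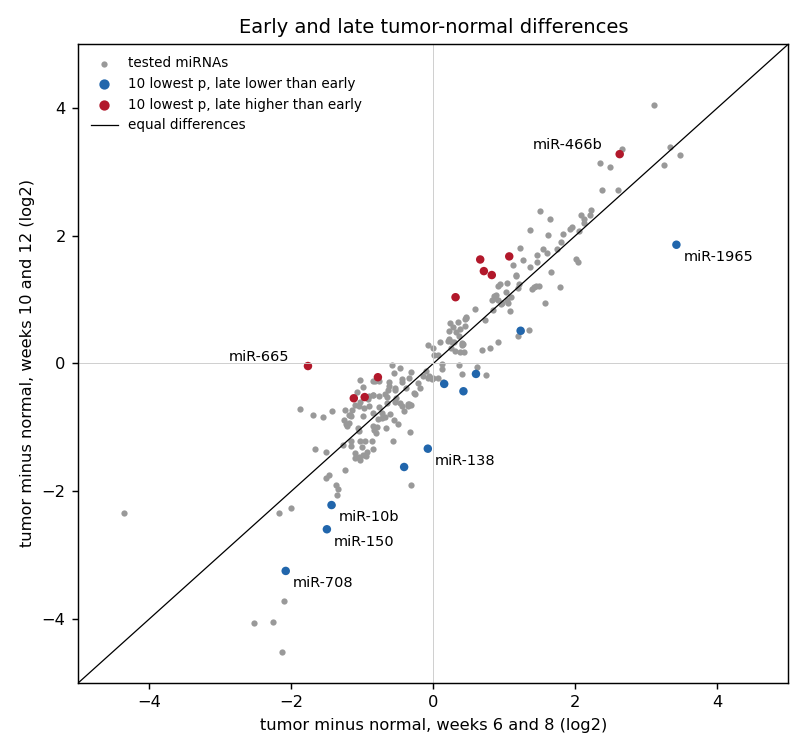
Tumor-normal log2 difference of each of the 237 tested miRNAs at weeks 6 and 8 (x axis) against weeks 10 and 12 (y axis), with the line of equal differences and the 10 miRNAs of lowest p-value in each direction in color. Points lie along the line, with r of 0.926, and the named miRNAs off it, such as miR-138 at -0.08 early and -1.33 late, did not pass the adjusted threshold.

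No miRNA passed the test of the change itself. The edgeR quasi-likelihood test called 0 of 237 (0%) at an adjusted p of 0.05, and the DESeq2 Wald test and limma-voom also called 0. At an unadjusted p under 0.05, edgeR found 17 miRNAs (7.17%), 8 higher (3.38%) and 9 lower (3.8%) late, where 5% of 237 would be 11.85. The split depended on the scaling. It was 14 higher and 5 lower with DESeq2 size factors and 27 higher and 2 lower with library sizes only, and the median change over all miRNAs was 0.058, 0.13 and 0.27 log2 units under these scalings in the same order.

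The precision of this test differed with abundance. The 95% interval of the change had a median half-width of 0.65 log2 units, and for 127 of 237 miRNAs (53.6%) the whole interval lay within 1 log2 unit of no change. Among the 79 most abundant miRNAs, with mean levels from 506 CPM upward, 68 intervals (86.1%) lay within this bound. Among the 79 least abundant, at 36.4 CPM or less, 14 (17.7%) did. Estimated changes exceeded 1 log2 unit for 13 miRNAs, and 10 of these were among the 79 least abundant. The intervals of the other scarce miRNAs extended past 1 log2 unit.

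MiR-138 had the lowest p-value of all. This miRNA is made from 2 precursor genes, at chr9:122591994-122592092 and chr8:96848211-96848281 of mm9, both outside other genes, and is known to be abundant in the brain and to target the cytoskeletal regulator RhoC. Its level was 16.6, 21.5 and 37.8 CPM (lowest, median and highest of 6) in early normal glands and 15.8, 22.3 and 27.4 CPM in early tumors, and these ranges overlapped. In late normal glands it was 22.8, 28.1 and 52.8 CPM, and in late tumors 7.04, 14.8 and 18.1 CPM, so that every late tumor lay below every late normal gland. The difference was -0.08 log2 units (SE 0.21) early and -1.33 (SE 0.22) late, a change of -1.26 (SE 0.30, 95% interval -1.89 to -0.62, unadjusted p = 5.15e-04), with an edgeR adjusted p of 0.122.

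Over weeks 6, 8, 10 and 12, the difference in miR-138 was 0.02, -0.18, -0.61 and -2.06 log2 units. At week 12, the normal glands had 52.8, 30.7 and 47.2 CPM and the tumors 15.3, 7.04 and 8.30 CPM. At week 6, the normal glands had 37.8, 18.8 and 19.2 CPM and the tumors 27.4, 23.4 and 25.6 CPM. The lowest tumor levels and the highest normal levels were both those of week 12. The change from week 6 to week 12 alone was -2.08 (edgeR adjusted p = 0.0239), the only call among 237 (0.422%), and the linear trend over the 4 weeks also called miR-138 alone (0.422%, edgeR adjusted p = 0.0203). Within lane 1 the change was -0.92 (unadjusted p = 0.0953) and within lane 2 it was -1.92 (unadjusted p = 0.00346). Its counts in single libraries ran from 11 to 163, which limits the precision.

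Other miRNAs with a lower late difference at an unadjusted p under 0.05 included 3 that were lower in tumors already early. MiR-150, expressed in mature lymphocytes, had 616, 766 and 1773 CPM in early and 695, 1172 and 1566 CPM in late normal glands. In tumors it had 147, 312 and 484 CPM early and 128, 190 and 263 CPM late. Tumors lay below normal glands in both periods without overlap, by -1.50 log2 units (SE 0.26) early and -2.60 (SE 0.27) late, and the change was -1.10 (SE 0.36, edgeR adjusted p = 0.627). The smallest difference was at week 6, at -0.77, and weeks 8, 10 and 12 were at -2.23, -2.64 and -2.55. The leukocyte miRNAs miR-142 and miR-155 had changes of -0.22 and -0.39, and the 3 leukocyte miRNAs tested summed to 1292 to 1818 CPM in early and 1198 to 1868 CPM in late tumors.

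MiR-10b, the Hox cluster miRNA at chr2:74564127-74564194 of mm9 in introns of Hoxd3 and Hoxd4, was among the most abundant miRNAs of the normal gland. It had 117092, 135879 and 160658 CPM in early and 130120, 148182 and 206808 CPM in late normal glands. Tumors had 19514, 57862 and 78032 CPM early and 23499, 33862 and 41159 CPM late, below every normal gland in both periods. Over weeks 6, 8, 10 and 12, the difference was -0.92, -1.95, -1.94 and -2.50. The change was -0.78 log2 units (SE 0.27, 95% interval -1.34 to -0.23, edgeR adjusted p = 0.627). Between weeks 8 and 10 it was 0.01, so the values that set the contrast were those of weeks 6 and 12. MiR-10a, which has the same seed, had differences of -0.87 early and -1.22 late and a change of -0.35 (95% interval -0.97 to 0.27).

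MiR-708, encoded in an intron of Odz4 at chr7:103397934-103398042 of mm9, showed the same order. Early normal glands had 227, 409 and 521 CPM and late normal glands 206, 491 and 779 CPM, while tumors had 19.99, 99.7 and 138 CPM early and 34.4, 50.3 and 73.5 CPM late. All tumors lay below all normal glands. Its difference moved from -2.08 (SE 0.33) to -3.25 (SE 0.35), a change of -1.17 (SE 0.46, edgeR adjusted p = 0.627). Across single weeks it was -1.44, -2.72, -3.13 and -3.36.

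**Figure D2:**
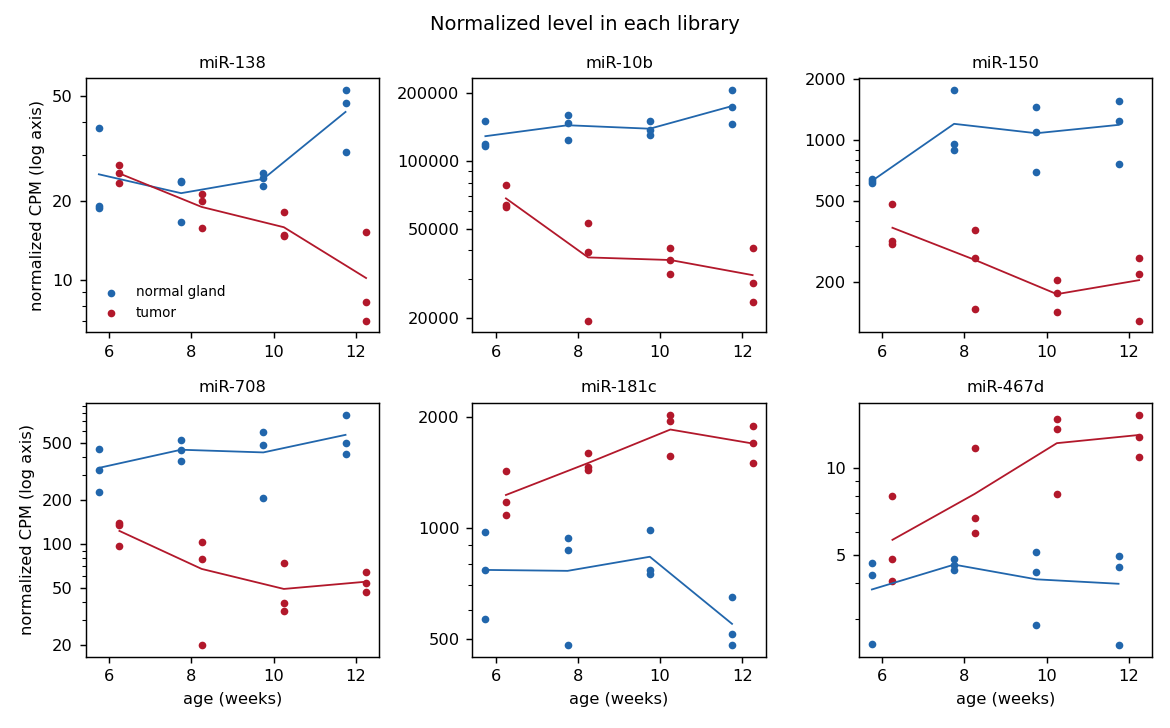
Level in CPM on a log axis of 6 miRNAs in each library by week, with tumors and normal glands marked separately and lines through the group means of 3 mice. MiR-138 tumors at week 12 lie between 7.04 and 15.3 CPM, below the 30.7 to 52.8 CPM of normal glands, while at week 6 the 2 tissues overlap.

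MiR-1965 was higher in tumors early and less so late. It had 0.35 to 1.42 CPM in early normal glands and 7.05, 9.499 and 13.96 CPM in early tumors, which did not overlap. Late, normal glands had 0.51 to 4.85 CPM and tumors 2.56, 4.91 and 8.16 CPM, which did overlap. The overlap came from replicate 2 of normal week 12, at 4.85 CPM, as the other late normal glands had 0.51 to 1.19 CPM. The difference was 3.42 early and 1.86 late, a change of -1.56 (SE 0.62, edgeR adjusted p = 0.627). Without single libraries the change ranged from -1.85 to -1.02. The edgeR unadjusted p was 0.0824 without replicate 2 of normal week 12. Its libraries held between 1 and 28 counts.

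MiR-2133 was likewise higher in tumors early, at 786, 1026 and 1405 CPM against 407, 447 and 480 CPM in normal glands. Late tumors had 306, 464 and 854 CPM and late normal glands 199, 405 and 482 CPM, which overlapped. The change was -0.72 (SE 0.33, unadjusted p = 0.0450). The remaining miRNAs with a lower late difference at this threshold were miR-1981 (0.60 early, -0.16 late), miR-190b (0.42, -0.44) and miR-339 (0.15, -0.32), whose early and late estimates had opposite signs. Of these 3, only miR-1981 passed the adjusted threshold early, and none passed it late.

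Among the 8 miRNAs with a higher late difference at an unadjusted p under 0.05, 2 came from one miR-181 cluster. MiR-181c and miR-181d lie next to each other at chr8:86702762-86702867 and chr8:86702615-86702686 of mm9, and the miR-181 family is known from T cell and hematopoietic development. MiR-181c had 481, 821 and 974 CPM in early and 483, 700 and 986 CPM in late normal glands. In tumors it had 1082, 1431 and 1597 CPM early and 1499, 1791 and 2028 CPM late, above every normal gland in both periods. Its difference was 0.67, 0.97, 1.14 and 1.62 in the order of the weeks, and the change was 0.56 log2 units (SE 0.23, 95% interval 0.09 to 1.04, edgeR adjusted p = 0.627).

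MiR-181d had a change of 0.72 (SE 0.32, unadjusted p = 0.0338), from 0.31 early to 1.04 late. Its early ranges overlapped, at 367 to 909 CPM in normal glands and 644 to 975 CPM in tumors. Its late ranges, 254 to 801 CPM and 669 to 975 CPM, overlapped as well when both weeks were pooled. Within each late week every tumor lay above every normal gland. At week 10 normal glands had 430 to 801 CPM and tumors 882 to 955 CPM, and at week 12 they had 254 to 456 CPM and 669 to 975 CPM. The late difference was called (edgeR adjusted p = 5.02e-04) and the early one was not (edgeR adjusted p = 0.209). In the normal glands the estimate for late against early was -0.58 (edgeR adjusted p = 0.101), and in tumors it was 0.14. The members of the same seed family from other loci stood closer to no change, with 0.20 for miR-181a (95% interval -0.09 to 0.49) and 0.17 for miR-181b (-0.31 to 0.64). Whether the family members differ from each other was not tested.

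MiR-326, in an intron of Arrb1 at chr7:106700779-106700873 of mm9, was called lower in tumors early and not in the late average. It had 84.1, 94.3 and 128 CPM in early normal glands and 49.4, 54.4 and 66.7 CPM in early tumors, which did not overlap. Late, it had 61.2, 77.4 and 117 CPM in normal glands and 50.1, 72.7 and 92.8 CPM in tumors, which did. The difference was -0.78 (SE 0.15) early and -0.22 (SE 0.15) late, a change of 0.57 (SE 0.21, edgeR adjusted p = 0.627). The 2 late weeks differed. At week 10 every tumor still lay below every normal gland, with a difference of -0.66 (edgeR adjusted p = 0.0144). At week 12 the sign had turned, with 79.2, 75.5 and 92.8 CPM in tumors against 75.5, 75.2 and 61.2 CPM in normal glands, and a difference of 0.22 that did not pass the threshold (edgeR adjusted p = 0.37).

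MiR-497, a member of the miR-15/16 family that restrains the cell cycle, was lower in tumors in both periods and less so late. Normal glands had 487, 644 and 714 CPM early and 594, 680 and 840 CPM late, and tumors 263, 298 and 402 CPM early and 411, 462 and 741 CPM late. The tissues were separate early and overlapped late. The late overlap came from replicate 2 of tumor week 12, at 741 CPM, as the other late tumors had 411 to 492 CPM. The difference was -0.97 early and -0.53 late, and the change was 0.44 (SE 0.20, 95% interval 0.02 to 0.86, edgeR adjusted p = 0.627). Within tumors, miR-497 rose by 0.64 log2 units (edgeR adjusted p = 0.0232), and was called under 28 of 34 settings. That total includes the main setting and those without a single normal gland, which removed no tumor library. Without replicate 2 of tumor week 12 the rise was 0.53 (edgeR adjusted p = 0.0621). It was also not called without replicate 1 of tumor week 6 or replicate 3 of tumor week 10 (edgeR adjusted p = 0.0605 and 0.0525). Its cluster partner miR-195, which shares the seed, had a change of 0.26 (95% interval -0.29 to 0.80).

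The same contrast can be divided into what happened with time in each tissue, and the normal gland contributed more calls than the tumor. From early to late, 28 of 237 miRNAs (11.8%) changed in normal glands, 1 higher and 27 lower (11.4%), and 5 of 237 (2.11%) changed in tumors, 3 higher (1.27%) and 2 lower (0.844%). Both counts varied with single libraries. In normal glands the count was 57 without replicate 2 of week 12, 51 without replicate 1 of week 8, 11 without replicate 2 of week 8 or replicate 1 of week 10, 13 without replicate 3 of week 8, 14 without replicate 3 of week 12 and 18 without replicate 2 of week 10. In tumors it was 18 without replicate 2 of week 8, 0 without replicate 1 of week 6 or replicate 3 of week 10, 1 without replicate 3 of week 8, 2 without replicate 2 of week 10 and 3 without replicate 2 or 3 of week 12. Both counts were 0 within either lane alone, where fewer libraries entered, and 40 and 9 with lane as a covariate.

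**Figure D3:**
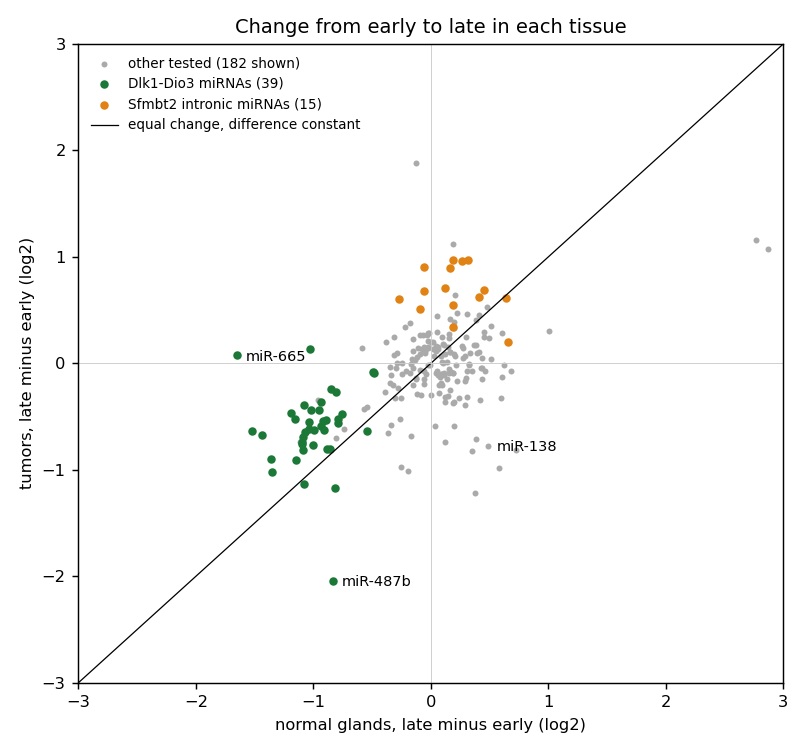
Log2 change from weeks 6 and 8 to weeks 10 and 12 in normal glands (x axis) and in tumors (y axis) for the 237 tested miRNAs, with Dlk1-Dio3 and Sfmbt2 members marked. The axes end at 3 log2 units, and 1 miRNA outside both lists lies beyond them and is not shown. Dlk1-Dio3 members lie left of and mostly below zero, with medians of -1.001 in normal glands and -0.61 in tumors, and Sfmbt2 members lie above zero in tumors, with a median of 0.68.

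All 27 miRNAs that fell in normal glands belong to the Dlk1-Dio3 domain, an imprinted region whose miRNAs are expressed from the maternal chromosome and are high in embryonic and growing tissue. Of the 52 names on this list, 48 had counts and 39 were tested, and the 46 found on the annotation lay on chromosome 12 between 110801902 and 110982005 of mm9, a span of 180.1 kb. In normal glands, all 39 estimates were lower late, with a median of -1.001 log2 units against 0.03 over all tested miRNAs. In tumors, 37 of 39 were lower, with a median of -0.61 against -0.07, and 1 (miR-487b) passed the test. At an edgeR unadjusted p under 0.05, 37 of 39 were lower in normal glands and 19 of 39 in tumors. Among the 183 tested miRNAs outside this list and the Sfmbt2 list, 6 and 13 were lower at that threshold. The summed level of the domain over weeks 6, 8, 10 and 12 was 42134 ± 3743, 22197 ± 7850, 17550 ± 7767 and 13400 ± 3350 CPM (SD, n = 3) in normal glands. In tumors it was 19162 ± 3247, 13348 ± 4305, 10853 ± 322 and 9893 ± 1200 CPM at the same weeks.

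Normal glands stood highest at week 6, and more of these miRNAs were called lower in tumors early than late. Early, 35 of 39 were called lower in tumors, against 40.9% of all tested miRNAs, with a median of -0.99. Late, 16 of 39 (41.0%) were, with a median of -0.65, a share near the 34.6% of all tested miRNAs. The change was positive for 35 of 39, with a median of 0.37 against 0.06 over all tested miRNAs, but none passed the adjusted threshold and 2 had an unadjusted p under 0.05. These 39 miRNAs are processed from shared transcripts and are not independent of each other. Between weeks 8 and 10 the change was positive for 17 of 39, and between weeks 6 and 12 its median was 0.87.

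MiR-127, the most abundant member, lies opposite the exon of Rtl1 and represses that gene, which acts in placental growth. It had 11995, 30330 and 42656 CPM in early and 9356, 12982 and 23950 CPM in late normal glands, and 9622, 16073 and 21056 CPM in early and 8321, 9811 and 10314 CPM in late tumors. The periods overlapped in both tissues. It fell by 0.99 log2 units in normal glands (edgeR adjusted p = 0.00985), its estimate in tumors was -0.63 (adjusted p = 0.116), and the change of the difference was 0.36 (95% interval -0.26 to 0.99). MiR-434, from the same Rtl1 antisense group, fell by 1.03 in normal glands (adjusted p = 0.00985), with -0.61 in tumors and a change of 0.42 (95% interval -0.23 to 1.07).

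MiR-411 and miR-665 were the 2 members with an unadjusted p under 0.05 for the change. MiR-411 had 142, 279 and 415 CPM in early and 80.9, 130 and 215 CPM in late normal glands, and 89.3, 134 and 171 CPM in early and 68.7, 91.2 and 121 CPM in late tumors. Its difference was -1.31, -0.94, -0.64 and -0.45 at weeks 6, 8, 10 and 12, a change of 0.58 (SE 0.27, unadjusted p = 0.0440). MiR-665 had 1.77 to 15.3 CPM in early and 0.97 to 7.68 CPM in late normal glands, against 0.58 to 5.48 CPM in early and 1.92 to 3.63 CPM in late tumors. Its change of 1.73 (SE 0.72, 95% interval 0.21 to 3.24) rested on 1 to 59 counts per library. Of the 4 members with a negative change, miR-487b had the largest, at -1.21 (SE 0.58), with 2 to 11 counts per library in early and 0 to 3 in late tumors. It fell by 2.04 log2 units in tumors (edgeR adjusted p = 0.0232), a value that depends on these few counts. The fall was called under 22 of 33 settings, a total that includes those without a single normal gland, which removed no tumor library.

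The calls in the normal gland depended on which libraries entered. Without the 6 libraries over 10000 CPM of muscle miRNAs, which left the smallest group with 1 library, 13 miRNAs were called in normal glands, all 13 in the Dlk1-Dio3 domain, and 0 in tumors. The median of the domain in normal glands was then -1.21. Within lane 1 and lane 2 the median was -1.14 and -1.04, with 0 calls in either. The part of muscle tissue in these values was not tested beyond this.

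**Figure D4:**
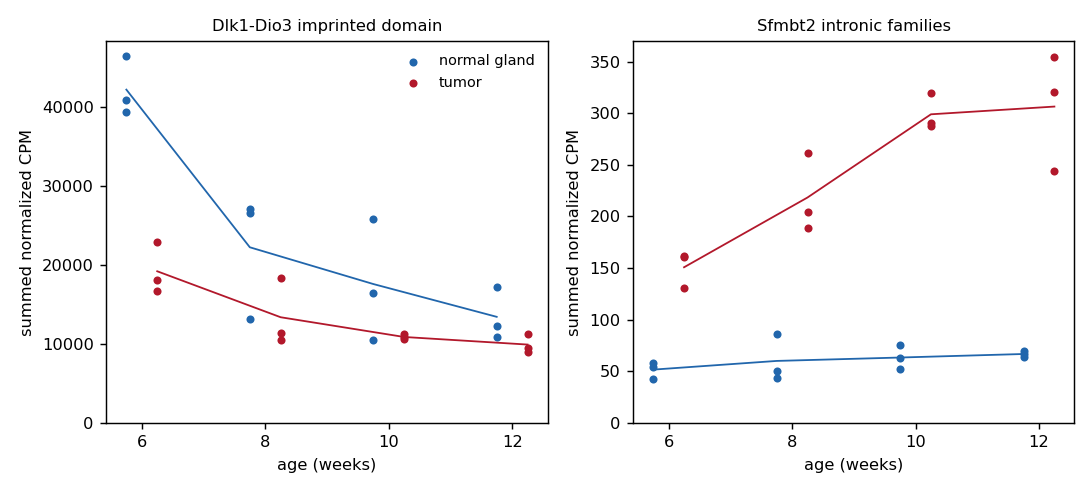
Summed level in CPM of the Dlk1-Dio3 and Sfmbt2 miRNAs in each library by week, for tumors and normal glands. The Dlk1-Dio3 sum went from 39258 to 46366 CPM at week 6 down to 10796 to 17179 CPM at week 12 in normal glands, and the Sfmbt2 sum stayed between 42.0 and 85.7 CPM in normal glands while tumors ran from 130 to 354 CPM.

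Of the 15 Sfmbt2 miRNAs tested, miR-466b and miR-466e rose in tumors from early to late. The miR-297, miR-466, miR-467 and miR-669 families are encoded in many near-identical copies, most of them in introns of Sfmbt2, a Polycomb gene imprinted in the placenta, on chromosome 2. MiR-466b alone has 8 annotated copies, and a short read that matches several of them cannot be assigned to one, so the values of single members are uncertain. Of 38 names listed, 29 had counts and 15 were tested. All 15 were called higher in tumors both early and late, against 35.4% and 35% of all tested miRNAs, with median differences of 1.36 and 1.67. A scarce miRNA can pass the filter on low counts through the tissue where it is higher. The counts of these 15 are therefore not independent of the filter, and they do not cover the members left untested. In tumors all 15 estimates were higher late than early, with a median of 0.68, and 2 were called, against 1.27% of all tested miRNAs. At an edgeR unadjusted p under 0.05, 10 of 15 were higher late in tumors, against 13 of 183 tested miRNAs outside this list and the Dlk1-Dio3 list. In normal glands the median was 0.19 with 0 calls (1 of 15 higher at an unadjusted p under 0.05, against 7.59% of all tested). The change of the difference was positive for 13 of 15, with a median of 0.61 against 0.06 over all tested miRNAs, and none passed the adjusted threshold.

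The summed level of these families in tumors was 151 ± 17.8, 218 ± 37.9, 299 ± 17.6 and 306 ± 56.2 CPM (SD, n = 3) over weeks 6, 8, 10 and 12. In normal glands it was 51.5 ± 8.41, 59.9 ± 22.6, 63.2 ± 12.0 and 66.7 ± 3.25 CPM. MiR-466b had 29.1, 37.9 and 68.0 CPM in early tumors and 55.0, 86.2 and 98.9 CPM in late tumors, which overlapped, against 4.72 to 10.5 CPM and 4.75 to 13.6 CPM in normal glands. It rose by 0.97 log2 units in tumors (edgeR adjusted p = 0.0232), its estimate in normal glands was 0.32, and the change was 0.65 (SE 0.32, unadjusted p = 0.0584). MiR-466e rose by 0.96 in tumors (adjusted p = 0.0232). The rise of miR-466b was called under 28 of 34 settings and that of miR-466e under 26 of 33. Both totals include the settings without a single normal gland, which removed no tumor library.

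MiR-467d and miR-669c were the 2 members with an unadjusted p under 0.05 for the change. MiR-467d had 4.07, 6.30 and 11.8 CPM in early and 8.11, 13.2 and 15.3 CPM in late tumors, while normal glands stayed at 2.44 to 4.83 CPM early and 2.43 to 5.11 CPM late. Early ranges overlapped between the tissues and late ranges did not. Its difference was 0.58, 0.74, 1.55 and 1.70 at weeks 6, 8, 10 and 12, and the change was 0.97 (SE 0.36, edgeR adjusted p = 0.627). MiR-669c had a change of 0.73 (SE 0.32), with 6.68 to 9.69 CPM in early tumors and 7.68 to 16.6 CPM in late tumors.

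The other calls within one tissue were few. In tumors, miR-2133 fell by 0.97 log2 units (edgeR adjusted p = 0.0298), and was called under 18 of 34 settings. In normal glands, miR-23a, which is clustered with miR-27a and miR-24, rose by 0.41 (edgeR adjusted p = 0.0455), with 1534 to 2895 CPM early and 1874 to 3275 CPM late, and was called under 9 of 34 settings. Both totals include settings that left out only a library of the other tissue. A miRNA called in one tissue and not in the other is not shown to differ between them, and the direct test of that difference called 0.

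The families most often tied to epithelium and growth had small estimated changes. All 5 members of the miR-200 family, which maintains the epithelial state by repressing Zeb1 and Zeb2, had changes between 0.08 and 0.34, with a median of 0.12. Their early differences were 1.60 log2 units or more. The clustered miR-183, miR-96 and miR-182 had changes of 0.14, 0.39 and 0.18. For miR-182, tumors had 26365, 31398 and 51636 CPM early and 29382, 37356 and 43348 CPM late, and normal glands 7023, 8881 and 9890 CPM early and 7605, 8049 and 11139 CPM late, without overlap in either period. Its change of 0.18 had a 95% interval of -0.20 to 0.55.

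All 9 members of the miR-17-92 and miR-106b-25 clusters, which are driven by Myc and E2F and favor cell division, had positive changes, from 0.04 for miR-92a to 0.61 for miR-18a, with a median of 0.25 and none at an unadjusted p under 0.05. Of all 237 tested miRNAs, 126 had a positive change. In tumors the median from early to late was -0.03 and in normal glands it was -0.30. The 8 members left were also positive when the 5 most counted miRNAs, miR-92a among them, were removed before scaling. That setting moved most miRNAs upward, with 168 of 233 tested positive and a median change of 0.28. The 3 miR-34 miRNAs, targets of p53, had a median of 0.25, and miR-210, the hypoxia miRNA, had -0.26 (95% interval -0.97 to 0.45).

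**Figure D5:**
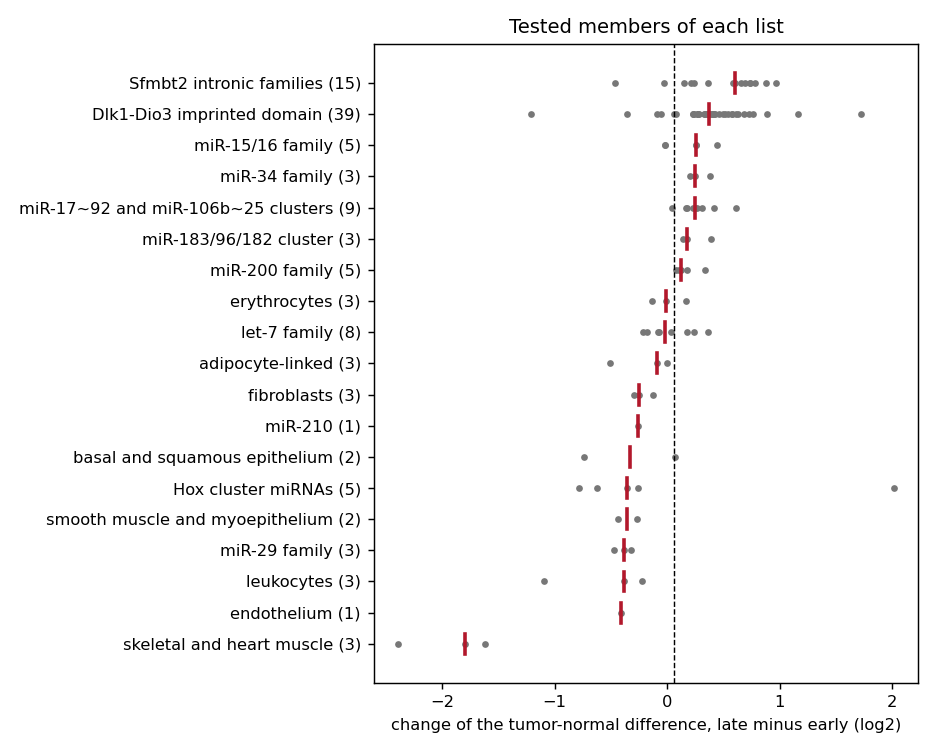
Change of the tumor-normal log2 difference, late minus early, for each tested member of each list, with the median of the list and the median of all tested miRNAs (0.06). Dlk1-Dio3 and Sfmbt2 members lie mostly above zero and the miR-200 members between 0.08 and 0.34. Fibroblast, endothelial, smooth muscle, miR-29 and skeletal and heart muscle members lie below zero, and 1 of 3 adipocyte-linked members lies just above it.

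Markers of stromal cells mostly lay on the other side of zero. The fibroblast miRNAs miR-199a, miR-199b and miR-214 had changes of -0.25, -0.30 and -0.13, the endothelial miR-126 had -0.41, and the smooth muscle and myoepithelial miR-143 and miR-145 had -0.44 and -0.27. The miR-29 family, which represses collagens, had -0.33, -0.47 and -0.39. None of these 9 had an unadjusted p under 0.05. All 9 estimates of the difference were below zero in both periods. With library sizes only, the medians were -0.04 for fibroblasts, -0.21 for endothelium, -0.18 for smooth muscle and -0.20 for miR-29, while 1 fibroblast miRNA turned positive and the median over all miRNAs was 0.27.

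Some lists had no direction that held. The median was -0.01 for the 3 erythrocyte miRNAs, -0.02 for the 8 let-7 members tested and -0.09 for the 3 adipocyte-linked miRNAs, and all 3 medians turned positive with DESeq2 size factors, at 0.10, 0.06 and 0.02. The basal miRNAs miR-205 and miR-203 had 0.07 and -0.74, and the miR-15/16 family ranged from -0.02 to 0.44. Of the Hox cluster miRNAs, miR-196b and miR-615 had -0.26 and -0.62 beside the miR-10 pair. MiR-196a had 2.01, with a 95% interval from -2.69 to 6.72. Its levels ran from 1.89 to 663 CPM in early normal glands and from 0.81 to 166 CPM in early tumors, so single libraries set its value.

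Muscle miRNAs had large estimates without precision. MiR-1 and miR-133a had changes of -2.39 (95% interval -7.24 to 2.46) and -1.62 (-5.92 to 2.69), and their levels varied between mice of one group. MiR-133a ran from 90.8 to 84629 CPM in early normal glands and from 37.2 to 16837 CPM in late tumors. These miRNAs are markers of muscle, and whether muscle was taken with a gland was not tested. Their part in the results for other miRNAs is given only by the values without the 6 libraries named above. In that setting the change was called for 0 miRNAs, with 30 at an unadjusted p under 0.05 (12 higher and 18 lower).

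Among the 10 most abundant miRNAs, miR-10b was the one with an interval that left out zero. MiR-148a, the most abundant, had 63991, 91580 and 97031 CPM in early and 80018, 110699 and 148912 CPM in late normal glands. Tumors had 288023, 321902 and 558418 CPM early and 255927, 337885 and 415404 CPM late, above all normal glands. Its difference was 2.01 early and 1.64 late, a change of -0.38 (95% interval -0.90 to 0.15). Reads of so abundant a miRNA take share from all others within a library, which TMM scaling is meant to offset.

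MiR-143 had 143444, 172212 and 226872 CPM in early and 182557, 220677 and 255439 CPM in late normal glands, and 65865, 93011 and 101496 CPM in early and 64439, 67921 and 128680 CPM in late tumors, with no overlap between tissues. Its change was -0.44 (95% interval -0.91 to 0.04). MiR-126, at -0.41, and miR-125b, at -0.46, had intervals of -0.98 to 0.15 and -0.98 to 0.06. MiR-92a had 0.04 (-0.37 to 0.46), miR-26a -0.16 (-0.65 to 0.33, but 0.0464 with library sizes only) and miR-21 0.06 (-0.31 to 0.44).

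MiR-21, often raised in human breast cancer, was the only one of the 10 most abundant miRNAs not called at either stage. It had 12312, 13948 and 20963 CPM in early and 13649, 15727 and 20426 CPM in late normal glands, and 13274, 15247 and 22135 CPM in early and 16202, 17852 and 21210 CPM in late tumors. The ranges overlapped in both periods, and the differences were 0.06 early and 0.12 late (edgeR adjusted p = 0.656 and 0.367).

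Among miRNAs with a large early tumor excess, miR-92b and miR-31 had late estimates near the early ones. MiR-92b had 66.1, 85.6 and 142 CPM in early normal glands and 674, 962 and 1501 CPM in early tumors, and 57.8, 110 and 168 CPM and 955, 1057 and 1206 CPM late. Its differences were 3.48 and 3.26, and its change was -0.22 (95% interval -0.89 to 0.44), or 0.0447 with library sizes only. MiR-31, which is tied to invasion and metastasis, had 145, 222 and 379 CPM in early and 233, 333 and 370 CPM in late normal glands against 1534, 1846 and 4043 CPM and 2669, 3240 and 3791 CPM in tumors. Its differences were 3.33 and 3.38, and its change was 0.06 (95% interval -0.57 to 0.69). MiR-9 had 9.88 to 1776 CPM in early tumors and 29.6 to 3218 CPM in late tumors, and with this spread its change of 0.94 had an interval from -1.68 to 3.55.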

How the data were processed

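Small RNA libraries of 24 mice (3 per genotype and week) were analysed. The authors trimmed and aligned the reads, counted those overlapping annotated miRNAs, and deposited raw counts per miRNA without normalization. The submitters' processing notes name Bowtie and mm9, while the methods of the study name mm10. Groups, weeks, replicate numbers and lanes came from the labels.

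Counts were fitted with edgeR 4.0.16 in R 4.3.3 over 8 genotype-by-week groups (filterByExpr, TMM, quasi-likelihood test, Benjamini-Hochberg adjustment over 237 miRNAs, threshold 0.05). P-values rest on the spread between libraries of a group, each from another mouse, and this spread also holds any handling shared by same-numbered libraries. The standard error is the log2 change divided by the quantile of its p-value, and intervals are at 95%. CPM were computed with TMM-scaled library sizes. Positions are from the mm9 annotation. The procedure was tested on simulated data.

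Named miRNAs are those called, the 10 with the lowest p-value in each direction, the 10 most abundant and up to 4 of the most abundant members of a list, plus 12 named after their values were seen. The rule, lists and members were chosen with earlier results of these data known, and list counts carry no test. Alternatives were DESeq2 1.42.0 and limma-voom 3.58.1, other scalings, filters, weeks, lanes and a replicate block, and leaving out each library. Lanes alone within one tissue and leaving out libraries rich in muscle miRNAs were added after seeing the data.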

Additional observations from a re-analysis of the deposited data

Results flagged for a closer look

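Among 80 groups of 6 libraries examined for the named miRNAs, 6 held a library that stood apart from the other 5 by Dixon's criterion. Chance gives about 1 in 20 where the 6 values come from one uniform group. Each group here pooled 2 weeks, and the miRNAs were those of lowest p-value in the same data, so this rate is only a guide. MiR-708 was lowest in a tumor of week 8 (replicate 2), at 19.99 CPM against 78.4 to 138 CPM in the other early tumors. MiR-1965 was highest in a normal gland of week 12 (replicate 2), at 4.85 CPM against 0.51 to 1.19. MiR-467d was lowest in a normal gland of week 6 (replicate 2), at 2.44 CPM against 4.25 to 4.83. MiR-665 was lowest in a normal gland of week 8 (replicate 1), at 1.77 CPM against 9.67 to 15.3. MiR-181d was lowest in a tumor of week 12 (replicate 1), at 669 CPM against 882 to 975. MiR-497 was highest in a tumor of week 12 (replicate 2), at 741 CPM against 411 to 492.

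The tumor-normal difference of miR-138 differed between weeks 12 and 6 by -2.08 log2 units, which passed the edgeR test of the difference itself (adjusted p = 0.0239).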

How the results depend on the processing

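The change from early to late was called for 0 miRNAs in every setting except week 12 against week 6 and the linear trend, with 1 each, and leaving out each library, with 0 to 1 (1 without replicate 1 of normal week 6, replicate 2 of normal week 12 or replicate 1 of tumor week 12). Each time this was miR-138. The count at an unadjusted p under 0.05 was 29 with library sizes only, 27 without a filter and with lane by genotype, 10 in lane 1, 34 without the 5 most counted miRNAs, 31 for week 12 against 6, 0 for week 10 against 8, 29 for the trend, 30 without the muscle-rich libraries and 13 to 31 without single libraries.

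Calls within tumors were 9 with library sizes only, 10 with DESeq2, 3 with at least 10 counts in every library, 9 with lane as a covariate, 0 in either lane or without the muscle-rich libraries, and 0 to 18 without single libraries. Within normal glands they were 17 with at least 10 counts, 0 in either lane, 13 without the muscle-rich libraries and 11 to 57 without single libraries. Dlk1-Dio3 miRNAs called lower in normal glands numbered 17, 0, 0 and 13 in these settings and 11 to 33 without single libraries. In tumors they numbered 0 with DESeq2, with at least 10 counts, in either lane and without the muscle-rich libraries, 3 with lane as a covariate and 0 to 2 without single libraries. Dlk1-Dio3 miRNAs with a positive change numbered 19 with at least 10 counts and 17 for week 10 against 8, and Sfmbt2 miRNAs 1 with at least 10 counts, where fewer were tested.

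The change turned sign for week 10 against 8 in miR-10b (0.0128), miR-10a (0.0243), miR-26a (0.0582), miR-126 (0.0496), miR-182 (-0.0692), miR-9 (-2.63), miR-31 (-0.63), miR-200a (-0.21), miR-181a (-0.17), miR-181b (-0.00403), miR-133a (0.85) and miR-196a (-0.48). It did so in lane 1 for miR-92a (-0.11), miR-182 (-0.0223), miR-31 (-0.116), miR-181a (-0.0158) and miR-181b (-0.0701), and in lane 2 for miR-31 (-0.0191). For miR-92a it was -0.00996 without a filter and -0.0294 for week 12 against 6. For miR-26a it was 0.0464 with library sizes only and 0.0596 without the 5 most counted miRNAs, and for miR-92b 0.0447 with library sizes only. For miR-31 it was -0.00469 without a filter, -0.0491 with lane by genotype and -0.29 without the muscle-rich libraries. Without single libraries it ranged from -0.12 to 0.15 for miR-92a, -0.0280 to 0.14 for miR-21, -0.49 to 3.48 for miR-9, -0.15 to 0.25 for miR-31, -4.92 to 1.00 for miR-1, -4.73 to 1.86 for miR-133a and -1.23 to 5.05 for miR-196a. The cause was not tested.

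Of 12 same-numbered tumor and normal pairs, 10 had deviations correlated above 0.1, with a mean over all 12 of 0.41 and a highest of 0.82, and 2 of week 12 were at 0.03 and 0.07. Neither the labels nor the methods state a pairing of mice. The column labels do place both libraries of each pair in the same lane, with neighboring sample numbers. Since not every pair passed 0.1, the block was kept as an alternative, and the main test has no term for this shared handling. A replicate block left 0 calls and 21 miRNAs at an unadjusted p under 0.05, with miR-138 at an edgeR adjusted p of 0.0688. Depth limits the scarce miRNAs, and 3 mice per group limit all of them.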
